A study of Mus musculus with 8 samples.

Results

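Rab GTPases are small GTP-binding proteins that give each membrane compartment of a cell its identity. Members were sought by symbol, made of Rab, a number and at most 1 further letter or letter and digit. The deposited RNA-seq values of rib chondrocytes listed 59 such genes that are protein-coding in the mouse annotation (GENCODE M21). Of these, 47 had at least 0.5 TPM (transcript abundance per length, scaled to the library total) in at least 4 of the 8 libraries and are described here. The 47 genes were chosen by this level and by their symbol, so their levels are given without a test. The rule did not use the difference between genotypes. The family was, however, picked with earlier results of these data known, so counts of calls are a description beside the background. All but 1 of them, *Rab3d*, reached 0.5 TPM in all 8 libraries. The 12 genes below the threshold were *Rab6b*, *Rab9b*, *Rab19*, *Rab25*, *Rab26*, *Rab33a*, *Rab3b*, *Rab3c*, *Rab37*, *Rab38*, *Rab39* and *Rab42*. At the edge of the threshold, the library with the fourth-highest level had 0.547 TPM for *Rab3d* and 1.48 TPM for *Rab40b*, just inside, and 0.448 TPM for *Rab6b* and 0.388 TPM for *Rab37*, just outside.

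The libraries came from costal (rib) chondrocytes of 7-d-old mice, freed from cartilage by collagenase, with 4 libraries from wild-type mice and 4 from *Mir140*-null mice on a C57BL/6J strain background. The null allele was made by injecting CRISPR/Cas9 reagents into zygotes and removes *Mir140* from the whole animal rather than from cartilage alone. Founders were of mixed C57BL/6 and CBA/ca origin and were backcrossed, and wild-type and null mice were then kept as lines, so that a difference between lines and a difference in genotype cannot be told apart. The sources used here do not say whether each library is 1 mouse or a pool, so p-values measure the spread between these libraries. The comparison of genotypes asks which transcripts differ in chondrocytes that lack every miRNA from the *Mir140* locus.

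A Rab protein cycles between a GDP-bound form held in the cytosol by inhibitor proteins and a GTP-bound form on a membrane. Exchange factors (GEFs) switch it on, GTPase-activating proteins (GAPs) switch it off, and effectors such as tethers and motor adaptors bind the active form. Chondrocytes secrete large amounts of collagen and proteoglycan, so the Rabs of the route from the endoplasmic reticulum (ER) to the Golgi apparatus and the surface, and those of endocytosis and lysosomes, serve the making and turnover of cartilage matrix.

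The 3 mature miRNAs of the locus relevant here have the following sequences, from the RefSeq hairpin on GRCm38.p6, plus strand, with the seed (bases 2 to 8) in capitals. They are shown because 3 of the 4 Rab genes with the smallest p carry matches to the miR-140-3p seeds in their 3'UTRs.
miR-140-5p, chr8:107551249-107551270: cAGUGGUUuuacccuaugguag
miR-140-3p.1, chr8:107551289-107551308: aCCACAGGguagaaccacgg
miR-140-3p.2, chr8:107551288-107551308: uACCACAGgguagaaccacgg
The miR-140-3p isomiRs differ by 1 base at the 5' end, which shifts the seed. The miR-140-3p.1 line was made here by leaving out the first base of the miR-140-3p.2 line. The study's human isomiRs of these names have the same seeds and other 3' ends. A 7m8 match is the reverse complement of the seed (AACCACT for miR-140-5p, CCTGTGG for miR-140-3p.1 and CTGTGGT for miR-140-3p.2), an 8mer adds an A after it, and a 7a1 match is the 8mer without its first base. The 7m8 letters of the 3p.1 and 3p.2 isomiRs overlap by 6 bases, so 1 stretch can hold both, and only the mRNA strand was searched.

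Matches were read in 1 3'UTR per gene, the longest in GENCODE M21 on GRCm38, and are printed in windows of 30 bases with the match in capitals. In *Rab8b*, on the minus strand of chromosome 9, these were 7m8 matches to miR-140-3p.2 at chr9:66845739-66845768 and chr9:66845167-66845196, and an 8mer for miR-140-3p.1 at chr9:66843809-66843838.
*Rab8b*, miR-140-3p.2, first: actgacatgttCTGTGGTcagctttttctt
*Rab8b*, miR-140-3p.2, second: agagcgcctttCTGTGGTcttctggatagg
*Rab8b*, miR-140-3p.1: tgtgggaagctCCTGTGGAtagtatggacc
In *Rab2a*, on the plus strand of chromosome 4, 7m8 matches to miR-140-3p.2 lay at chr4:8606835-8606864 and chr4:8607612-8607641, of which the first is also a miR-140-3p.1 match.
*Rab2a*, miR-140-3p.2, first: tttcccaacacCTGTGGTtacctaatgttt
*Rab2a*, miR-140-3p.2, second: ttgtttactcaCTGTGGTggttttatcctc
*Rab7*, on the minus strand of chromosome 6, held a miR-140-3p.1 7m8 match at chr6:87999975-88000004. Matches of the same kind lay on the plus strand at chr7:92839613-92839642 in *Rab30*, whose null libraries all lay below the wild-type ones without passing the test, and at chr1:131714328-131714357 in *Rab7b*, which was down-regulated. These 3 are shown because the genes differed in direction.
*Rab7*, miR-140-3p.1: tccttgaaggtCCTGTGGgaaggctggtgc
*Rab30*, miR-140-3p.1: ggatttttgttCCTGTGGcacgagtttatc
*Rab7b*, miR-140-3p.1: ggaagcagggaCCTGTGGgcctggagactc

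Library-wide values bear on every result below. The number of genes reaching 0.5 TPM was 17128 to 17950 per wild-type library and 15800 to 17435 per *Mir140*-null library, with null replicates 1 and 2 the lowest. Mitochondrially encoded genes took 4.06% to 6.98% of TPM in wild-type and 8.41% to 10.1% in null libraries. Chondrocyte markers were abundant in all libraries, with summed levels of 62040 to 77850 TPM in wild-type and 46940 to 65290 TPM in null, and 1 of the 11 was called up and 2 down. Null replicates 1 and 2 stood apart in the fibroblast or perichondrium list: *Col1a1*, the main collagen of bone and fibrous tissue, was at 47.9 and 50.1 TPM there, and at 1326 and 898 TPM in null replicates 3 and 4, against 793 to 1544 TPM in wild-type. That list of 6 summed to 2491 to 4769 TPM in wild-type and 516 to 4130 TPM in null, with 1 gene called up and 1 down. The 6 macrophage and leukocyte markers summed to 22.01 to 39.93 TPM in wild-type and 17.0 to 31.3 TPM in null, 1 of them was called down, and *Adgre1* was under 0.5 TPM in every library. Endothelial markers summed to 6.02 to 22.8 TPM in wild-type and 3.98 to 28.8 TPM in null. No gene of the endothelial, osteoblast, erythroid, muscle, neural or adipocyte lists was called. In bulk RNA, fewer cells of a type and less RNA per cell cannot be told apart, and the part of other cells in the Rab values was not tested. *Mir140* itself had a value above 0 only in the library labelled *Mir140*-null replicate 2 (8.86 TPM) and was 0 in the other 7 libraries, wild-type ones included, so these poly(A) libraries do not check the genotype. Its host gene *Wwp2* differed by -0.16 on the log2 scale (limma adjusted p = 0.487).

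The Rab genes spanned a wide range of level in chondrocytes. Mean TPM over the 8 libraries ran from 0.491 for *Rab3d* to 143 for *Rab1a*, with a median of 12.3, and 27 of the 47 genes had a mean of at least 10 TPM. The 6 highest were *Rab1a*, *Rab11a*, *Rab7*, *Rab14*, *Rab6a* and *Rab2a*, which act in ER to Golgi transport, recycling, lysosome delivery, endosome to Golgi traffic, retrograde Golgi traffic and again ER to Golgi transport. *Rab6a* differed little between genotypes, with 55.6 ± 1.47 TPM in wild-type and 57.1 ± 5.43 TPM in null (SD, n = 4 each). The Rabs grouped here under regulated secretion were low, the highest of them being *Rab15* with 4.77 ± 1.31 TPM in wild-type.

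Between genotypes, most Rab calls were increases in *Mir140*-null chondrocytes. In the limma fit across all 17177 tested genes, 16 of the 47 Rab genes (34.0%) were up-regulated in *Mir140*-null chondrocytes and 2 (4.26%) were down-regulated, and 29 did not pass the test. Among all tested genes 10.5% were called up and 6.40% down (16.9% either way), and among the 13118 tested protein-coding genes 12.7% up and 5.30% down (18.0% either way). The share up was larger in a fit of the 9668 genes with a mean of at least 5 TPM, with 17.0% up and 6.26% down. Of the 34 Rab genes in that fit, 14 were up and 2 down. All 4 null libraries lay above all 4 wild-type libraries for 17 Rab genes, against 15.7% of all tested and 19.3% of coding genes. They lay below for 3 Rab genes, *Rab7b*, *Rab24* and *Rab30*, against 10.2% of all tested and 9.14% of coding genes. Rab genes had a median log2 fold change of 0.096, with -0.0088 over all tested genes and 0.038 over coding genes, and 32 of 47 Rab genes had a positive one. Without null replicates 1 and 2, 6 Rab genes were up and 0 down (all tested genes, 2.08% and 1.22%). Without null replicates 3 and 4, 12 were up and 4 down (all tested genes, 11.0% and 12.9%). Leaving out 1 library gave 9 up without wild-type replicate 3 or 4 and 10 without null replicate 1 or 2, and 11 or 12 otherwise, with 0 to 3 down. In those 8 fits, 4.54% to 9.04% of all tested genes were up and 2.44% to 7.07% down. Of all calls 62.0% were up, but 50.9% after median-ratio scaling, where 12 Rab genes were up and 3 down (all tested genes, 7.96% and 7.68%). Quantile normalization gave 9 up and 4 down (8.77% and 6.52%). Median-ratio scaling ended the calls of *Rab1a*, *Rab2b*, *Rab10*, *Rab11a* and *Rab21* (limma adjusted p 0.059 to 0.0665), and quantile normalization those of *Rab1a*, *Rab5a*, *Rab8a*, *Rab10*, *Rab11a*, *Rab18* and *Rab21* (0.0512 to 0.178).

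Summed over the family, Rab transcripts took 1000 to 1064 TPM in the wild-type and 1197 to 1256 TPM in the null libraries, with no overlap. The sums were higher in all 4 null than in all 4 wild-type libraries for early endosome, late endosome and lysosome, recycling, ER to Golgi and exocytosis Rabs, and overlapped for the regulated secretion and Rab40 groups.

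**Figure D1:**
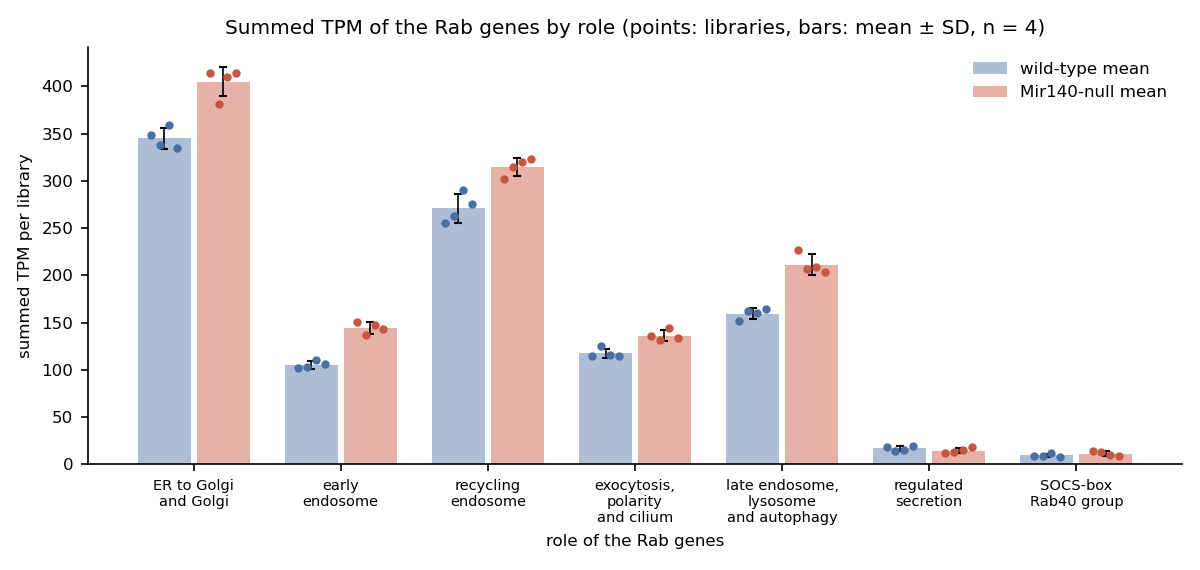
Summed TPM of the 47 Rab genes by role (bars, mean; error bars, SD, n = 4; points, libraries). The early endosome sum was 102 to 110 TPM in wild-type and 137 to 150 TPM in *Mir140*-null libraries, while regulated secretion ran from 14.4 to 19.2 TPM and from 12.1 to 18.5 TPM.

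**Figure D2:**
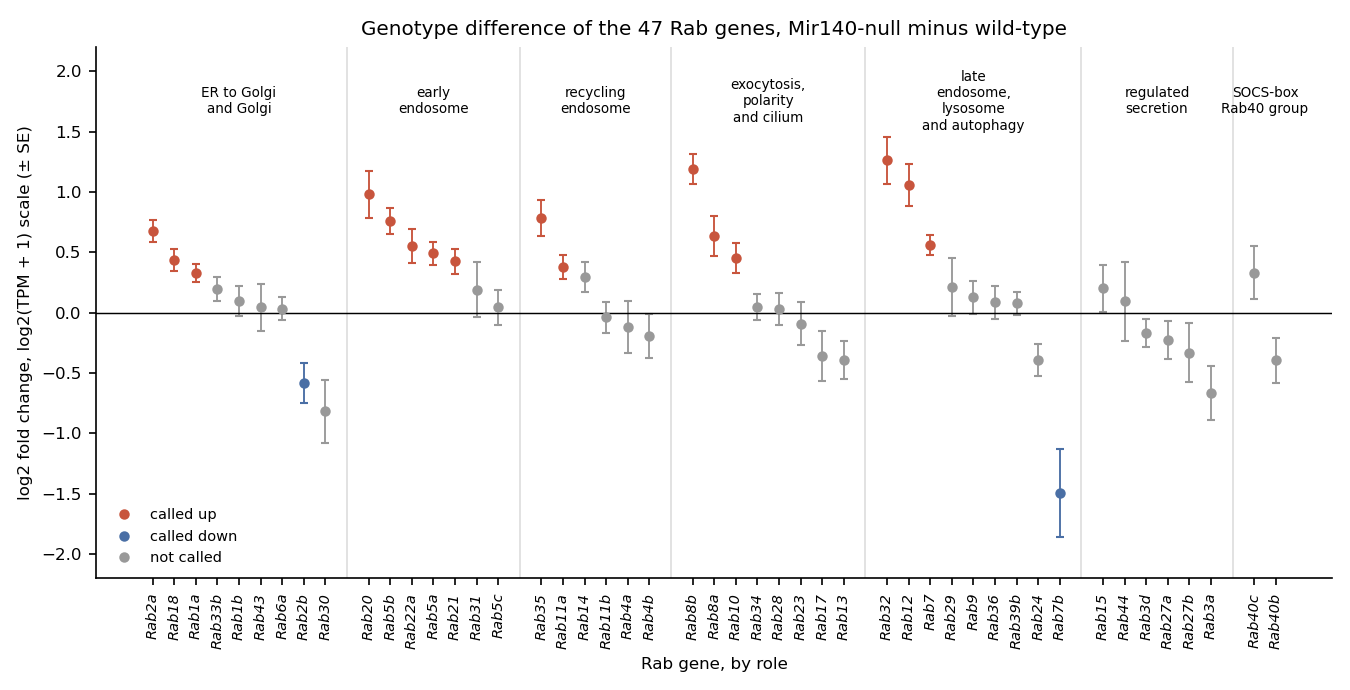
Log2 fold change (log2(TPM + 1) scale, *Mir140*-null minus wild-type, with SE) of each Rab gene, grouped by role. All 7 early endosome genes lie above 0 and 5 of them were called up, whereas none of the 6 regulated secretion genes was called.

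Of 7 early endosome Rabs, 5 rose, none fell, and the median log2 fold change was 0.49. Without null replicates 1 and 2, only *Rab5b* of these 5 kept the call, and with quantile normalization 3 did (*Rab5b*, *Rab20* and *Rab22a*). *Rab5a*, *Rab5b* and *Rab5c* drive fusion of endocytic vesicles with early endosomes. *Rab5b* stood at 8.36, 8.74, 9.11 and 9.42 TPM in wild-type replicates 1 to 4 and at 17.8, 15.5, 15.3 and 14.5 TPM in the null replicates. The lowest null library was thus well above the highest wild-type library, and *Rab5b* rose by 0.76 ± 0.11 on the log2(TPM + 1) scale (SE; limma adjusted p = 0.00732), in all alternative fits as well. *Rab5a*, the most abundant of the 3, had 47.1, 43.0, 48.1 and 41.1 TPM in wild-type and 68.5, 60.7, 62.5 and 61.6 TPM in null. It rose by 0.49 (limma adjusted p = 0.0150), but missed the threshold without null replicates 1 and 2 (adjusted p = 0.0702) and with quantile normalization (0.33, adjusted p = 0.0561). *Rab5c* had overlapping values, 18.8 to 25.8 TPM in wild-type and 18.2 to 25.2 TPM in null, with a log2 fold change of 0.04 ± 0.14 (SE).

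*Rab20*, which acts in the maturation of phagosomes and macropinosomes, was low in wild-type at 2.37, 2.41, 2.24 and 2.84 TPM. In the null libraries it was at 7.79, 7.10, 5.04 and 4.03 TPM. The groups did not overlap, and the null libraries with the higher values were replicates 1 and 2. *Rab20* rose by 0.98 ± 0.19 (SE; limma adjusted p = 0.0169), with 0.67 and an adjusted p of 0.0664 without those libraries, and an adjusted p of 0.0502 without wild-type replicate 3. *Rab21*, which binds integrins during their endocytosis, was at 10.2 to 11.5 TPM in wild-type and 13.8 to 15.8 TPM in null and rose by 0.43 (limma adjusted p = 0.0290). That call held only in the fits without null replicate 3 or 4 among the 8 that left out 1 library (adjusted p up to 0.0811). *Rab22a*, of early endosomes, was at 5.33 to 7.69 TPM against 9.10 to 11.0 TPM and rose by 0.55 (limma adjusted p = 0.0335), a call that held in 1 of those 8 fits, the one without wild-type replicate 2 (adjusted p up to 0.0882). Its relative *Rab31* was at 8.79 to 11.2 TPM in wild-type, at 8.56 and 8.69 TPM in null replicates 1 and 2, and at 15.7 and 15.8 TPM in null replicates 3 and 4, so its values in the null group fell on both sides of the wild-type range (log2 fold change 0.19, limma adjusted p = 0.589).

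Of 9 ER to Golgi and Golgi Rabs, 3 rose and 1 fell. *Rab2a*, which tethers vesicles between the ER and the Golgi, had 42.4, 45.5, 42.8 and 41.1 TPM in wild-type and 75.3, 63.9, 69.3 and 68.6 TPM in null. Every null library exceeded every wild-type library, and *Rab2a* rose by 0.68 ± 0.09 (SE; limma adjusted p = 0.00619), with a call in all alternative fits. Its close paralogue *Rab2b* went the other way, with 46.0, 38.0, 37.6 and 34.2 TPM in wild-type and 21.1, 34.9, 24.3 and 23.6 TPM in null. Null replicate 2 lay above the lowest wild-type library, so the groups overlapped. *Rab2b* fell by 0.58 on the log2 scale with a limma adjusted p of 0.0496, and of the fits that left out 1 library only that without null replicate 2 kept the call (adjusted p up to 0.107). Exons of *Rab2b* share 195 bases with *Tox4* on the opposite strand.

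*Rab1a*, the main Rab of ER to Golgi transport and the most abundant of the family, was at 121 to 129 TPM in wild-type and 149 to 165 TPM in null. It rose by 0.33 ± 0.08 (SE; limma adjusted p = 0.0272). The call was lost in 6 of the 8 fits that left out 1 library, all but those without null replicate 3 or wild-type replicate 1 (adjusted p up to 0.0735). It was also lost with median-ratio scaling (adjusted p = 0.0665) and with quantile normalization, where the log2 fold change was 0.17 (adjusted p = 0.178). *Rab1b* was at 10.3 to 12.1 TPM and 10.6 to 14.0 TPM, with a log2 fold change of 0.10. *Rab18*, of lipid droplets and the ER, had 32.2, 34.2, 34.6 and 33.8 TPM in wild-type and 47.5, 41.8, 47.6 and 47.0 TPM in null and rose by 0.44 (limma adjusted p = 0.0176). Leaving out wild-type replicate 4 gave an adjusted p of 0.0508 for it, and leaving out null replicates 1 and 2 gave 0.0516. With quantile normalization its log2 fold change was 0.27 (adjusted p = 0.0672).

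*Rab30*, a Golgi Rab, was the lowest of this group in fold change without passing the test. It had 5.29, 5.10, 8.05 and 5.98 TPM in wild-type and 1.84, 2.10, 4.54 and 4.15 TPM in null, with no overlap, and a log2 fold change of -0.82 ± 0.26 (SE; limma adjusted p = 0.0632). The difference was -0.39 without null replicates 1 and 2 and -1.24 without null replicates 3 and 4 (adjusted p = 0.273 and 0.0123). It passed with median-ratio scaling (adjusted p = 0.0427) and quantile normalization (0.0413). *Rab33b*, which links the Golgi and autophagy, had 9.84 to 11.4 TPM in wild-type and 11.8 to 12.7 TPM in null, a small shift of 0.19 that did not pass (limma adjusted p = 0.211). *Rab43* had 16.9 to 27.1 and 16.5 to 26.2 TPM, but shares 4164 exonic bases on the same strand with *Gm45140*, so its level is uncertain.

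Of 9 late endosome, lysosome and autophagy Rabs, 3 were up-regulated and 1 down-regulated. *Rab7*, which brings late endosomes to lysosomes, had 74.0, 78.7, 78.9 and 70.2 TPM in wild-type and 118, 104, 114 and 111 TPM in null. It rose by 0.56 ± 0.08 (SE; limma adjusted p = 0.00839) in every fit tried. *Rab7b*, which carries cargo from late endosomes to the Golgi, moved the other way, with 6.75, 12.3, 11.0 and 14.2 TPM in wild-type and 2.004, 1.49, 5.50 and 5.11 TPM in null. The groups did not overlap, and null replicates 1 and 2 were lowest. *Rab7b* fell by 1.50 on the log2 scale (SE 0.36, limma adjusted p = 0.0299). The difference was -0.90 without null replicates 1 and 2 (adjusted p = 0.124) and -2.10 without null replicates 3 and 4 (adjusted p = 0.00878). Among fits that left out 1 library, the call held without null replicate 3, null replicate 4 or wild-type replicate 1 and not in the other 5 (adjusted p up to 0.0770).

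*Rab12*, which directs recycling receptors to lysosomes, had 17.4, 19.0, 17.1 and 19.3 TPM in wild-type. Its null values were 50.9, 44.4, 29.4 and 34.6 TPM. Even the lowest null library was above all wild-type libraries, and replicates 1 and 2 were again the more extreme. *Rab12* rose by 1.06 ± 0.17 (SE; limma adjusted p = 0.00997), and by 0.78 without those libraries (adjusted p = 0.0386). *Rab32*, of lysosome-related organelles and mitochondria, was at 1.40, 1.52, 1.17 and 2.40 TPM in wild-type and at 7.15, 4.75, 4.42 and 4.76 TPM in null. It rose by 1.26 ± 0.19 (SE; limma adjusted p = 0.00862), and was called in every fit that tested it. On the log2(TPM + 1) scale the rise of *Rab32* exceeded the 1.19 of *Rab8b*. It did not without null replicate 1 (1.13 against 1.15), wild-type replicate 3 (1.18 against 1.25) or null replicates 1 and 2 (1.11 against 1.19). Adding 1 shrinks the change of *Rab32*, the lower gene, more, and the ratios of mean TPM were 3.26 and 2.70.

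The other members of that group did not pass the test. *Rab24*, an atypical Rab linked to autophagy, had 18.8 to 20.5 TPM in wild-type and 12.8, 13.0, 18.7 and 14.9 TPM in null, with a log2 fold change of -0.39 (limma adjusted p = 0.0782). Its exons share 1258 bases with *Prelid1* on the opposite strand. *Rab9*, of late endosome to Golgi traffic, had 15.7 to 21.3 TPM in wild-type and 16.1 to 20.5 TPM in null. *Rab39b* was steady, at 12.6 to 13.3 TPM against 13.2 to 14.1 TPM, and *Rab29* and *Rab36* were below 3 TPM in every library.

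Recycling Rabs were split, with 2 of 6 genes up-regulated and none down-regulated. *Rab35*, of fast recycling to the plasma membrane, had 7.70, 9.92, 9.71 and 10.7 TPM in wild-type and 19.5, 18.6, 16.4 and 13.9 TPM in null. It rose by 0.78 ± 0.15 (SE; limma adjusted p = 0.0148), with 0.63 and an adjusted p of 0.0879 without null replicates 1 and 2. *Rab11a*, the main Rab of recycling endosomes, had 95.6, 114, 121 and 119 TPM in wild-type and 153, 138, 141 and 153 TPM in null. The groups did not overlap and *Rab11a* rose by 0.38 ± 0.10 (SE; limma adjusted p = 0.0395), yet each of the 8 fits that left out 1 library lost the call (adjusted p 0.0585 to 0.0822), and with quantile normalization the log2 fold change was 0.21 (adjusted p = 0.15). Part of its exons, 107 bases, is also annotated as *Gm47308*, a miRNA gene on the same strand with a mean of 216 TPM, so reads may be split between them.

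The remaining recycling Rabs overlapped between genotypes. *Rab14* had 40.4 to 58.7 TPM in wild-type and 58.6 to 64.4 TPM in null, with a log2 fold change of 0.29 (limma adjusted p = 0.144). *Rab11b* had 34.9 to 40.4 TPM in wild-type, 31.9 and 33.0 TPM in null replicates 1 and 2, and 42.7 and 41.9 TPM in null replicates 3 and 4. Like *Rab31*, it lay on both sides of the wild-type range within the null group. *Rab4b*, of rapid recycling, was at 44.6 to 67.4 TPM against 37.6 to 59.9 TPM, and *Rab4a* was below 3 TPM. *Rab4b* shares 1280 bases with the read-through gene *Gm21983* on the same strand and is uncertain.

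Among Rabs of exocytosis, polarity and the primary cilium, 3 of 8 rose and none fell. *Rab8b*, which carries vesicles to the plasma membrane and cilium, had the smallest p of the family. It was at 2.80, 3.11, 3.60 and 2.81 TPM in wild-type and at 9.03, 7.65, 8.59 and 7.96 TPM in null, a 2.70-fold ratio of means. Both groups were tight and far apart, and the log2 fold change was 1.19 ± 0.12 (SE; limma adjusted p = 0.00393). It remained 1.19 without null replicates 1 and 2 and also without null replicates 3 and 4, and was called in every fit.

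*Rab8a*, its more abundant paralogue, had 10.2, 17.7, 15.2 and 12.7 TPM in wild-type and 22.5, 21.2, 22.3 and 21.2 TPM in null. It rose by 0.63 ± 0.16 (SE; limma adjusted p = 0.0343), and of the 8 fits that left out 1 library only that without wild-type replicate 2 kept the call (adjusted p up to 0.0870). *Rab10*, of exocytosis and insulin-regulated glucose transporter traffic, had 16.3, 20.9, 20.7 and 18.6 TPM in wild-type and 29.9, 22.5, 26.5 and 27.2 TPM in null. It rose by 0.45 ± 0.13 (SE; limma adjusted p = 0.0455), and none of the 8 fits kept the call (adjusted p 0.0551 to 0.104). *Rab8a* and *Rab10* thus had separate groups but lay close to the threshold. Exons of *Rab10* share 143 bases with its antisense gene *Rab10os*, and whether the mapping used strand is not given in the sources used here. *Rab13*, the junctional relative of *Rab10*, had 7.05 to 10.6 TPM in wild-type and 5.27 to 7.11 TPM in null (log2 fold change -0.39, limma adjusted p = 0.123).

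The other members of this group did not pass. *Rab34*, needed for building cilia, was at 43.3 to 53.0 TPM in wild-type and 45.2 to 53.5 TPM in null, with a log2 fold change of 0.04 ± 0.11 (SE). *Rab23*, a negative regulator of Hedgehog signalling, was at 5.82 to 8.78 TPM against 5.76 to 8.37 TPM, with -0.09 ± 0.18 (SE). *Rab28* was at 13.4 to 19.7 TPM and 15.4 to 16.5 TPM, and *Rab17*, an epithelial Rab, was at 2.17 to 3.30 TPM and 1.14 to 2.89 TPM.

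None of the 6 regulated secretion Rabs was called, and their median log2 fold change was -0.20. *Rab3a*, the Rab of synaptic and hormone vesicles, had 4.96, 2.13, 4.01 and 5.22 TPM in wild-type and 1.82, 2.04, 2.14 and 2.42 TPM in null. Wild-type replicate 2 lay within the null range, and the difference of -0.66 ± 0.22 (SE) gave a limma adjusted p of 0.0755. *Rab27a* and *Rab27b*, which dock secretory granules and exosome-bearing bodies, had log2 fold changes of -0.23 and -0.33, and *Rab3d* had -0.17. *Rab15* and *Rab44* had 0.20 and 0.09. *Rab44* was at 0.886 and 0.746 TPM in null replicates 1 and 2 and at 2.93 and 3.28 TPM in null replicates 3 and 4, around a wild-type range of 1.09 to 2.16 TPM. Of the SOCS-box Rabs, which belong to ubiquitin ligases, *Rab40c* had 13.6, 11.8, 7.82 and 7.21 TPM in null against 6.48 to 9.60 TPM in wild-type. *Rab40b* had 0.884, 0.707, 1.48 and 1.52 TPM in null against 1.44 to 2.52 TPM. Neither was called.

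**Figure D3:**
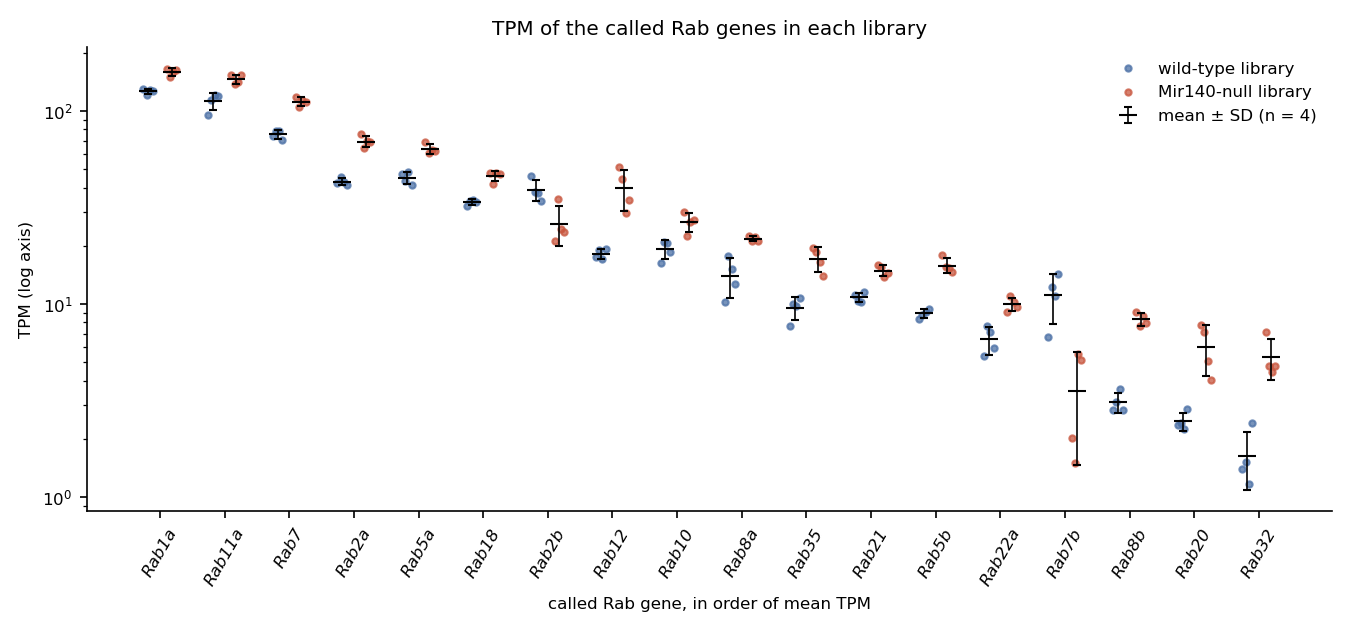
TPM (log axis) of the 18 called Rab genes in each wild-type and *Mir140*-null library, in order of mean level, with mean and SD (n = 4). The genotypes do not overlap except for *Rab2b*, and the null libraries of *Rab7b* and *Rab12* spread more widely than those of *Rab8b*.

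Ratios of paralogues within a library do not depend on how libraries are scaled to each other and are given as a description. The *Rab2a* to *Rab2b* ratio was 0.922 to 1.20 in wild-type and 1.83 to 3.57 in null, so near-equal levels gave way to an excess of *Rab2a*. For *Rab7* to *Rab7b* it was 4.93 to 11.0 in wild-type and 20.6 to 70.1 in null. *Rab8b* to *Rab8a* went from 0.176 to 0.275 in wild-type to 0.361 to 0.401 in null, so *Rab8a* stayed the more abundant of the pair in all 8 libraries. *Rab5b* gained on *Rab5c*, at 0.365 to 0.451 against 0.606 to 0.849, and slightly on *Rab5a*, at 0.178 to 0.229 against 0.236 to 0.260. *Rab10* to *Rab13* was at 1.53 to 2.96 and 3.72 to 5.44. In the other 8 pairs the genotypes overlapped, among them *Rab11a* to *Rab11b* (2.47 to 3.46 and 3.29 to 4.78) and *Rab1a* to *Rab1b* (10.6 to 11.8 and 11.3 to 15.5).

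**Figure D4:**
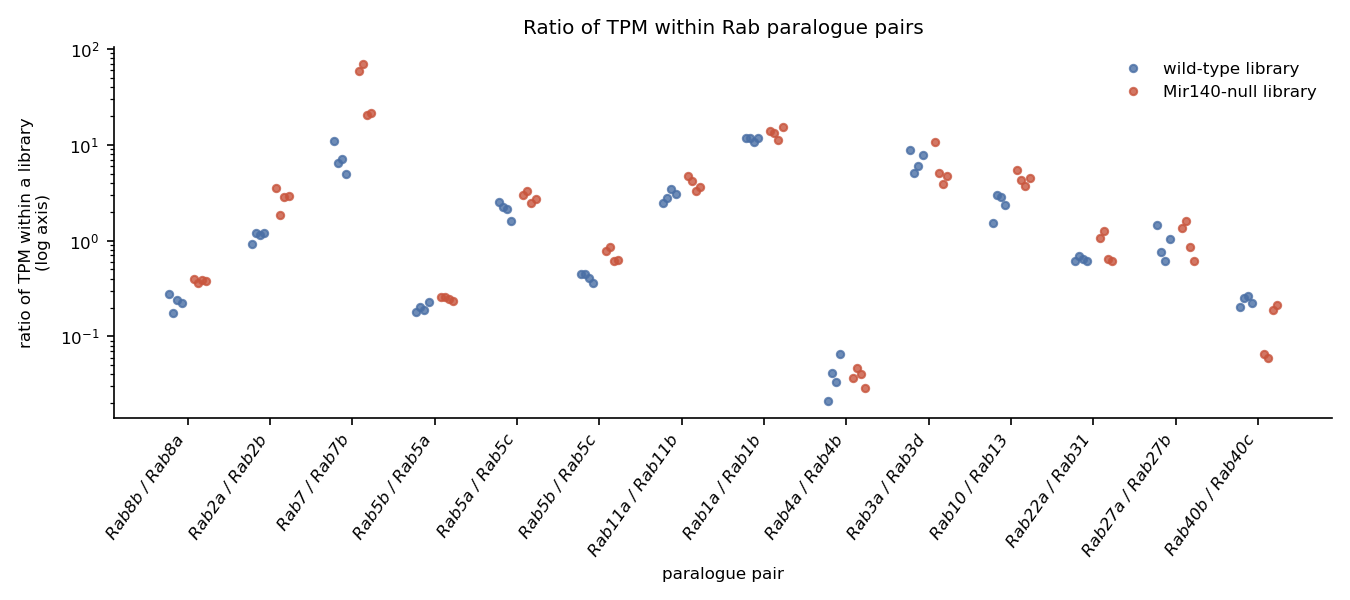
Ratio of TPM within 14 Rab paralogue pairs (log axis), 1 point per library. Wild-type and *Mir140*-null libraries are separate for 6 pairs, *Rab8b*/*Rab8a*, *Rab2a*/*Rab2b*, *Rab7*/*Rab7b*, *Rab5b*/*Rab5a*, *Rab5b*/*Rab5c* and *Rab10*/*Rab13*.

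Regulators and effectors of the Rab cycle changed in both directions. Of 142 genes listed by role, 130 were tested, and 16 (12.3%) were called up and 10 (7.69%) down. By class, calls were 4 up and 2 down of 32 GEFs, 3 and 1 of 37 GAPs, and 9 and 6 of 50 effectors. The shares over all 130 are close to those of all tested genes, 10.5% up and 6.40% down. By class they varied, with GEFs at 12.5% and 6.25%, GAPs at 8.11% and 2.7%, and effectors at 18.0% and 12.0%. Without null replicates 1 and 2, 1 was up and 1 down. Without null replicate 1 or 2 or wild-type replicate 1, 3 or 4, 5 to 8 were up and 1 to 3 down, and without null replicate 3 or wild-type replicate 2, 6 were down. Genes with the smallest p and no overlap between genotypes are given here, 5 up and 4 down.

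*Gorasp2*, a Golgi stacking protein and Rab2 effector, had 53.6, 50.7, 43.6 and 47.5 TPM in wild-type and 122, 103, 76.7 and 76.5 TPM in null. It rose by 0.91 (limma adjusted p = 0.0136), in every fit tried. *Rin2*, a Rab5 exchange factor, had 60.5, 125, 104 and 125 TPM in wild-type and 267, 245, 195 and 249 TPM in null and rose by 1.24 (limma adjusted p = 0.0148). The Rab3 GAP subunit *Rab3gap2*, whose complex also activates Rab18, went from 13.2 to 20.4 TPM in wild-type to 27.1 to 37.5 TPM in null and rose by 0.88 (limma adjusted p = 0.0156). The Rab11 effectors *Rab11fip1* (9.35 to 13.7 against 16.9 to 24.1 TPM) and *Rab11fip4* (32.3 to 75.0 against 100.5 to 136 TPM) rose by 0.84 and 1.15 (limma adjusted p = 0.0166 and 0.0185). *Rin2*, *Rab3gap2*, *Rab11fip1* and *Rab11fip4* lost the call without null replicates 1 and 2 (adjusted p 0.0945 to 0.109), and *Rab11fip4* also without null replicate 2 (0.0541) or wild-type replicate 3 (0.0508).

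Other regulators were lower in the null libraries. The DENN-domain exchange factor *Dennd5a* was at 44.4 to 54.6 TPM against 27.9 to 36.4 TPM and fell by 0.55 (limma adjusted p = 0.0215), with 0.0601 and 0.0614 without null replicate 2 or wild-type replicate 3. *Rilp*, the Rab7 effector that recruits dynein, was at 1.19 to 1.64 TPM against 0.601 to 0.834 TPM and fell by 0.45 (limma adjusted p = 0.0277). *Myrip*, which links Rab27 to myosin, was at 0.974 to 1.44 TPM against 0.562 to 0.814 TPM and fell by 0.46 (limma adjusted p = 0.0293). *Ocrl*, a Rab-binding inositol phosphatase, was at 13.1 to 15.4 TPM against 8.45 to 11.5 TPM and fell by 0.50 (limma adjusted p = 0.0315). These falls are on the log2(TPM + 1) scale, where adding 1 shrinks changes of genes near 1 TPM. The ratio of mean TPM, null to wild-type, was 0.540 for *Rilp*, 0.509 for *Myrip* and 0.688 for *Ocrl*, so *Ocrl* fell least by ratio. Of the 8 fits that left out 1 library, 2 kept the call for *Rilp*, 2 for *Myrip* and 1 for *Ocrl*, with adjusted p up to 0.0768, 0.0777 and 0.0774. Without null replicates 1 and 2, the adjusted p of *Dennd5a*, *Rilp*, *Myrip* and *Ocrl* was 0.0553 to 0.126.

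Predicted miR-140 targets were read from the TargetScan lists of the study, which were made for human genes and matched here by symbol. They named 10 Rab genes, all among the 47, which is 21.3% of the members, while 8.32% of tested coding genes were on a list. Of these 10, 6 rose and none fell, beside 19.8% called up among the 1092 tested coding genes on any list. In the 8 fits that left out 1 library, 4 of the 10 were up without null replicate 3 or 4 and 3 without any other library. Of the 37 Rab genes matched to no list, 10 rose and 2 fell. A gene whose human symbol is not its mouse symbol in capitals could not be matched. These 37 may therefore hold listed genes, and the same limit applies to the other coding genes.

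By list, both miR-140-5p genes, *Rab10* and *Rab11a*, were up-regulated, and neither call held when any 1 library was left out. Of the 5 miR-140-3p.1 genes, *Rab5b* and *Rab21* rose and *Rab11b*, *Rab23* and *Rab30* did not pass. Of the 5 miR-140-3p.2 genes, *Rab2a*, *Rab8b* and *Rab21* rose and *Rab27b* and *Rab30* did not pass. *Rab30*, on both 3p lists, had its null libraries below its wild-type libraries, opposite to *Rab21*, which was also on both.

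**Figure D5:**
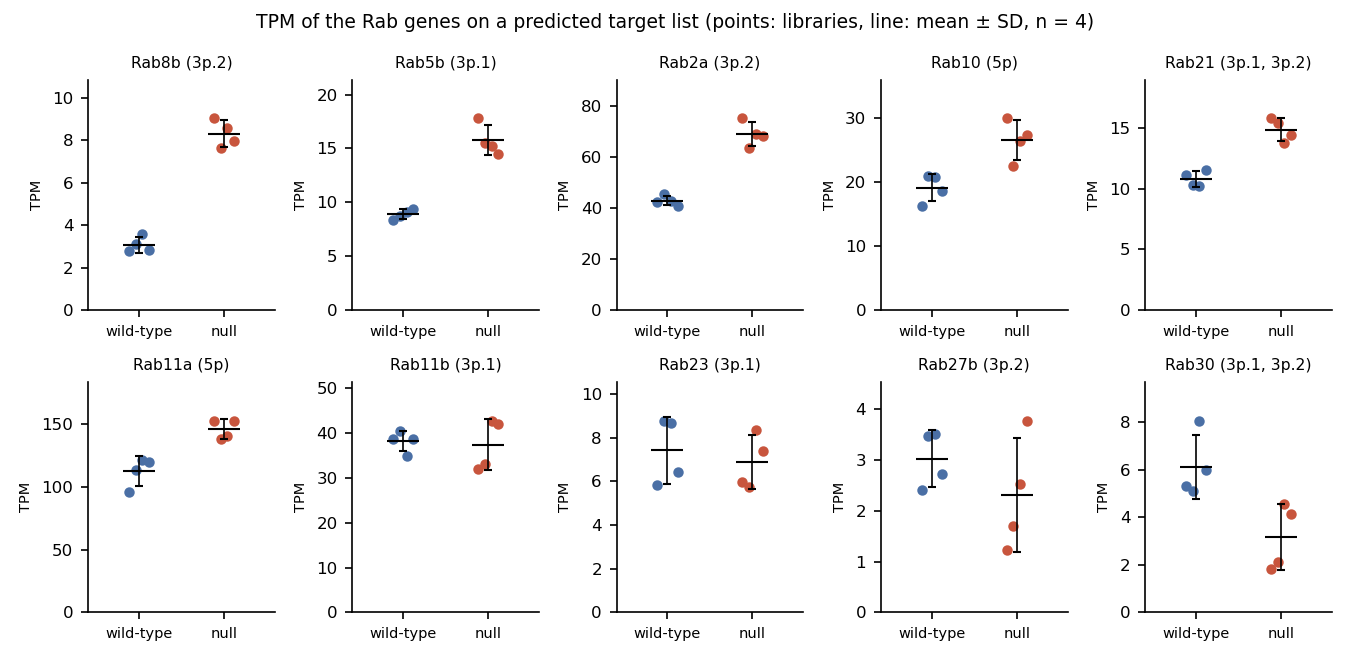
TPM in each library of the 10 Rab genes on a TargetScan list (the list is named in each panel), with mean and SD (n = 4). The first 6 panels, *Rab8b* to *Rab11a*, show null libraries above all wild-type libraries, *Rab11b*, *Rab23* and *Rab27b* overlap, and *Rab30* is lower in null.

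Seed matches in mouse were read independently of those lists. For miR-140-5p, 8.51% of Rab genes and 10.9% of tested coding genes had a 7m8 or 8mer match in that 3'UTR. The shares were 31.9% and 20.2% with miR-140-3p.1, and 29.8% and 19.0% with miR-140-3p.2. Rab 3'UTRs were longer, with a median of 1951 bases against 1159, and among coding genes with 3'UTRs of 902 to 2834 bases, the interquartile span of the Rab lengths, 12.0%, 22.8% and 21.6% had one. With 7a1 matches counted too, the Rab shares were 12.8%, 38.3% and 40.4%, against 16.2%, 35.5% and 28.8% of those coding genes. The Rab shares were over all 47 genes, with 3'UTRs of 265 to 8596 bases, so lengths were not fully matched. The median length was 1614 bases in those coding genes. By call, miR-140-3p.1 matches were in 31.2% of the 16 up-regulated and 31.0% of the 29 uncalled Rab genes, and miR-140-3p.2 matches in 37.5% and 27.6%. Counting only 8mers, miR-140-3p.1 matches were in 18.8% and 3.45%. Counting all 3 kinds, they were in 50.0% and 31.0%, and miR-140-3p.2 matches in 56.2% and 34.5%. In these miR-140-3p counts the share was nearly equal or higher in the up-regulated genes, by a gap that depended on which kinds were counted. The miR-140-3p.1 8mer shares rest on 3 and 1 genes. Up-regulated Rab genes also had longer 3'UTRs, with a median of 1993 bases against 1514 in the uncalled ones. The part of length in these gaps was not tested. For miR-140-5p, 7m8 or 8mer matches went the other way, at 6.25% of the up-regulated and 10.3% of the uncalled Rab genes. Of the 2 down-regulated genes, *Rab7b* held a 7m8 and 3 further 7a1 matches to miR-140-3p.1 and *Rab2b* held none.

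Single genes differed in how prediction and sequence lined up. *Rab8b* held the 3 matches printed above and a further miR-140-3p.1 7m8 match, and *Rab2a* held both of its miR-140-3p.2 matches. The longest mouse 3'UTRs of *Rab10* and *Rab11a* held no miR-140-5p match of the 3 kinds, and those of *Rab5b* and *Rab11b* none for miR-140-3p.1. Among called genes on no list, 8mers were present in *Rab1a* for miR-140-3p.2 and in *Rab20* and *Rab22a* for miR-140-3p.1. These windows, on GRCm38, are chr11:20225741-20225770 (plus strand), chr8:11453817-11453846 (minus strand) and chr2:173703877-173703906 (plus strand).
*Rab1a*, miR-140-3p.2: ttttccctcatCTGTGGTAgagatggagag
*Rab20*, miR-140-3p.1: cactcaaacccCCTGTGGAgcctgcctggt
*Rab22a*, miR-140-3p.1: agatgagctgcCCTGTGGAttttttaatag
*Rab23*, which had no genotype difference that passed, held an 8mer of the same kind on the plus strand at chr1:33740256-33740285.
*Rab23*, miR-140-3p.1: actcagaaggcCCTGTGGAgcgcgtgcaca
Matches thus occurred in genes that rose, in *Rab7b*, which fell, and in genes with overlapping genotypes.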

How the data were processed

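RNA from rib chondrocytes of 4 wild-type and 4 *Mir140*-null samples was sequenced as stranded poly(A) libraries. The authors deposited TPM per Ensembl gene, made with Salmon on the mm10 transcriptome. Only a lower bound on sequencing depth is stated for the libraries, and the TPM carry no counts, so no depth per library or counting interval is given. Repeated identifiers carried the same value and were counted once, after which each library summed to 1000000 TPM. Symbols and 3'UTRs came from GENCODE M21, which held 52220 of 52325 identifiers. A gene entered the test if 4 or more libraries reached 0.5 TPM. The test was limma's moderated test (version 3.58.1, R 4.3.3) on log2(TPM + 1), with a mean-variance trend, two-sided, with Benjamini-Hochberg adjustment over all 17177 tested genes, and a call meant an adjusted p below 0.05. Tables were made with Python 3.11.15, pandas 2.3.3 and NumPy 2.4.6 and figures with matplotlib 3.10.9. In simulated data of the same 17177 genes, 74 of 200 genes changed 2-fold were recovered (37%), with 4 false calls. Noise there was drawn independently for each gene and library, and only those 200 changed, whereas 2897 genes were called in the data. Neither value therefore gives the recovery or the false calls of the real fit.

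The members and lists were chosen with earlier results of these data known. Named by rule were called Rab genes, the 6 highest, those on a target list, 2 on each side of the threshold, paralogues of called genes, and 5 regulators per direction, of which 1 is not reported here. Other members are named so that each is accounted for, and details on *Rab3a*, *Rab24*, *Rab33b*, *Rab40b*, *Rab40c* and *Rab44* were chosen after their values were seen. Alternatives were median-ratio, quantile and nuclear-coding scaling, a smaller pseudocount (0.1), testing unfiltered genes or those averaging 5 TPM or more, replicate number as a block, 1 factor from residuals, sample weights, no trend, and leaving out each library or null replicates 1 and 2. The fit without null replicates 3 and 4 was added after seeing the data.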

Additional observations from a re-analysis of the deposited data

Results flagged for a closer look

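In 3 of 86 groups of 4 libraries examined, 1 library stood far from the other 3, by a measure that chance alone exceeds in about 1 in 20 groups. *Rab18* in *Mir140*-null replicate 2 was at 41.8 TPM, the lowest of its group, with the others at 46.95 to 47.6 TPM. *Rab32* in *Mir140*-null replicate 1 was the highest of its group at 7.15 TPM, with the others at 4.42 to 4.76 TPM. *Myrip*, a Rab27 effector, was the highest of its group in *Mir140*-null replicate 1 at 0.814 TPM, with the others at 0.562 to 0.589 TPM.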

How the results depend on the processing

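The TPM hold no read counts, so the number of reads behind low genes could not be read from them, and no limit from counting was set. Of the 47 Rab genes, 6 were called in every fit that tested them (*Rab2a*, *Rab5b*, *Rab7*, *Rab8b*, *Rab12* and *Rab32*), and *Rab5a* and *Rab35* also in each of the 8 fits that left out 1 library. The share of all tested genes called in every fit was not counted, so these counts have no background beside them. Leaving out 1 library gave 9 to 12 Rab genes up and 0 to 3 down, and 5 to 14 regulators and effectors up and 1 to 7 down. Without *Mir140*-null replicates 1 and 2, the Rab counts were 6 up and 0 down and those of regulators 1 up and 1 down, and without null replicates 3 and 4 there were 4 Rab genes down. Quantile normalization gave 9 up and 4 down, and 1 factor from residuals 4 down (all tested genes down, 6.52% and 11.7%). Counts of Rab genes down were 1 with a pseudocount of 0.1, 1 without the trend, 1 after rescaling to nuclear coding genes and 0 with no filter. Among all tested genes the shares down in those fits were, in the same order, 5.54%, 6.36%, 5.91% and 1.47%. Regulators up numbered 9 with median-ratio scaling and 9 with no filter (all tested genes up, 7.96% and 2.67%). Regulators down numbered 2 with no filter and 6 with a mean of at least 5 TPM (all tested genes down, 1.47% and 6.26%). Over all tested genes, 62.0% of calls were up, and 50.9% with median-ratio scaling, where 12 Rab genes were up and 3 down. The causes were not tested.

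No pairing of libraries by replicate number was seen. Deviations from the group mean correlated by -0.00911 to 0.0688 in the 4 same-numbered pairs and by -0.0845 to 0.0723 in the other 12. Not every library correlated best with its own number. The labels do not say whether same-numbered libraries were prepared together, and weak correlations cannot settle it. With replicate number as a block, 6 Rab genes were up and 1 down, and 7 regulators up and 1 down, and 671 genes were up and 454 down over all tested genes (1797 and 1100 without the block).

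Log2 fold changes turned sign only in genes that did not pass. With quantile normalization *Rab6a* was at -0.134, *Rab5c* at -0.0765 and *Rab3d* at 0.0107. Without null replicates 3 and 4, *Rab6a* was at -0.051, *Rab5c* at -0.0711 and *Rab31* at -0.21, and without null replicates 1 and 2, *Rab11b* at 0.146, *Rab23* at 0.0913 and *Rab27b* at 0.0388. *Rab11b* was at 0.0394 with sample weights. Leaving out 1 library, *Rab6a* ran from -0.0113 to 0.0984, *Rab5c* from -0.0176 to 0.132 and *Rab11b* from -0.106 to 0.0299. Of 792 gene values in alternatives, 617 kept direction and call, 153 kept direction and lost the call, 6 kept direction and gained it, and 16 turned sign.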
